A study of Mus musculus with 27 samples.

Results

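The Hoxb cluster is 1 of the 4 clusters of homeobox genes of the mouse, and its 10 genes, Hoxb1, Hoxb2, Hoxb3, Hoxb4, Hoxb5, Hoxb6, Hoxb7, Hoxb8, Hoxb9 and Hoxb13, were followed here across limb bud organoids and embryonic tissues. They were taken by name, and all 10 were found among the 23279 genes of the expression table. The study grew limb bud-like tissues from mouse ES cells of the line EB5 Hand2::GFP +/-, in which a green fluorescent reporter marks Hand2, a transcription factor of limb bud mesenchyme. Aggregates were grown in Matrigel with BMP4 between days 1 and 5, and all of them received the BMP receptor inhibitor LDN193189 and Wnt3, which the labels date from day 7 to day 9 and the study's methods give one after the other, with LDN193189 starting before day 7 and both washed out before day 9. Aggregates given retinoic acid from day 5 to day 6 became the forelimb type (ES-FLB), and those given an antagonist of retinoic acid from day 6 to day 6.5 the hindlimb type (ES-HLB). Reporter-positive mesenchyme was sorted from pooled aggregates on day 9, so these groups hold the sorted mesenchyme of 1 cell line.

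The embryonic groups came from Slc:ICR embryos and were dissected without a sorting step, so they hold every cell type of the tissue. They were forelimb buds (FLB) and hindlimb buds (HLB) of an early stage, labelled E10.0, FLB and HLB of E10.5, and, also from E10.5 embryos, tail bud (TB), branchial arch (BA) and cardiac tissue (Ca). The study describes the early FLBs as staged before the early HLBs, although the labels give both the same stage, so between the early buds limb type and stage cannot be told apart. Each of the 9 groups had 3 libraries, 27 in all. Nothing states that the 3 came from separate cultures or litters, and p-values measure the spread between these libraries only.

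Hox genes encode transcription factors that give cells along the body axis their position. The genes of a cluster lie in the order in which they are switched on, with genes of the 3′ end active early and far forward, and genes of the 5′ end active late and towards the tail. Retinoic acid is known to activate 3′ genes, and Wnt, FGF and Cdx factors act on the middle and 5′ genes. In the flank of the embryo the Hox code of the lateral plate mesoderm precedes the limb buds and bears on where they form, and the Hoxa and Hoxd clusters are then used again to pattern the growing limb.

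On the mouse assembly GRCm38 (mm10) the RefSeq spans of the cluster run over 174 kb of chromosome 11, from 96194316 to 96368254, with all 10 genes on the plus strand. Hoxb13 stands alone at the 5′ end (96194316 to 96196610) and 74.7 kb separate it from Hoxb9, while Hoxb9 to Hoxb1 lie within 96.9 kb. Hoxb1 is the last gene of the 3′ end (96365746 to 96368254). The cluster also holds genes of 2 microRNAs, Mir196a-1 between Hoxb13 and Hoxb9 and Mir10a beside Hoxb4, within the RefSeq span of Hoxb3. That span (96307101 to 96347930) contains all of Hoxb4, and by the GENCODE annotation antisense transcripts overlap Hoxb2 and Hoxb3 (Hoxb3os) and Hoxb5 and Hoxb6 (Hoxb5os). The libraries were stranded, but the strand setting of the counting is not given in the sources used here, so the values of Hoxb3 and Hoxb4, and of the genes with an antisense partner, are uncertain where reads overlap.

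Sequence of the 250 bases before a start of transcription was found for 3 of the 10 genes in the RefSeq table (GRCm38.p6, plus strand), and these are shown because they were at hand: Hoxb8, Hoxb4 and Hoxb1. Capitals mark the motifs found among 5 that were searched on both strands: TGATNNAT for Hox-Pbx pairs, TTTATG for Cdx, CCAAT, the nuclear receptor letters AGGTCA and the E-box CACGTG. The Hoxb8 window is chr11:96281655-96281904, before the start of its main transcript and inside its longer RefSeq span. The Hoxb4 window is chr11:96318017-96318266 and the Hoxb1 window chr11:96365508-96365757, whose last 12 bases lie inside the RefSeq span of Hoxb1.
Hoxb8: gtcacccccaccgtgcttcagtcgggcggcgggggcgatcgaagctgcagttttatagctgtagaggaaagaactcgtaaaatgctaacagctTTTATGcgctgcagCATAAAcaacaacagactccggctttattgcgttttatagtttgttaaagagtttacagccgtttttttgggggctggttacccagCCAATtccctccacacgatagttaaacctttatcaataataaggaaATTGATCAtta
Hoxb4: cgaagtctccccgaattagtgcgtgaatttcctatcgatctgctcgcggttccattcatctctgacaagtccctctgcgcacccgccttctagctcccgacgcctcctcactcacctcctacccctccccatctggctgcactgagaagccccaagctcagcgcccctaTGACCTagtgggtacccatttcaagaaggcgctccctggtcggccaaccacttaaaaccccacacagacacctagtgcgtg
Hoxb1: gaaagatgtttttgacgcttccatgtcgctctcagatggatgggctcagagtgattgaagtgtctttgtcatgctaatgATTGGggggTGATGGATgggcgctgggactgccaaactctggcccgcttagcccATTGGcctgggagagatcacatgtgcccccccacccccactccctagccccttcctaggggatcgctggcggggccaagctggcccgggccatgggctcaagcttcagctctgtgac

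In Hoxb8, TTTATG occurred 157 and 143 bases before the start, on opposite strands, CCAAT 57 bases and TGATNNAT, on the minus strand, 11 bases before it. Hoxb4 held only AGGTCA, 81 bases before the start, on the minus strand. Hoxb1 held TGATNNAT 162 bases before the start and CCAAT 171 and 117 bases before it, on the minus strand. Of 32851 upstream sequences of the same length in the table, 7.68% held TGATNNAT, 10.8% TTTATG, 14.02% AGGTCA and 33.9% CCAAT, so each of these letter strings is common. E-box letters, held by 6.02% of them, were in none of the 3 windows. A match is a description of the letters and says nothing of binding.

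The microRNAs of the cluster are known repressors of Hox messages. Their mature sequences (RefSeq, GRCm38.p6) are shown with the seed, bases 2 to 8, in capitals, beside the longest site for miR-196a and 2 sites that match a seed, all in 3′ UTRs of the cluster. Mature microRNAs themselves were not measured by these mRNA libraries.
mmu-miR-196a-5p: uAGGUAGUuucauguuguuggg
Hoxb8 site: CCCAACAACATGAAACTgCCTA
Hoxb7 site: ctgtaaaaaaatatACTACCTa
mmu-miR-10a-5p: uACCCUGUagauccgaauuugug
Hoxb3 site: tgacttaacgtgaaaACAGGGTa

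The Hoxb8 site lies at 96284888 to 96284909, and its capitals mark the 21 of 22 bases that pair with miR-196a. The remaining base, in lower case, faces base 5 of the microRNA as a G:U pair. The Hoxb7 site (96289784 to 96289805) and the Hoxb3 site (96347287 to 96347309) are shown with only the seed match in capitals, and they paired with 14 of 22 and 10 of 23 bases. Seed matches to miR-196a also lay in the 3′ UTRs of Hoxb1 and Hoxb6.

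Values were deposited as CPM, the reads of a gene per 1000000 reads of its library, and were rescaled here between libraries. The spacing of low values put the depth, in units of 1000000 reads, at 3.66 to 22.1 a library, deepest in the early buds, and 3 reads, taken as the floor, were worth 0.153 to 0.549 scaled CPM. Correlations between replicates were 0.988 to 0.997. Replicate 2 of the E10.5 HLBs lists genes of chromosomes 5 to 9, X and Y and of the end of chromosome 4 at 0 and was set to missing there, while chromosome 11 is complete in it. The limb type labels held in the 17 limb libraries where Tbx5 could be read: this forelimb T-box gene was at 65.9 scaled CPM or more in FLB and ES-FLB and at 3.99 or less in HLB and ES-HLB. T, which marks the tail bud, was at 119 to 135 scaled CPM in TB and at 3.62 or less elsewhere. A gene was tested when at least 3 of the compared libraries reached 1 scaled CPM, with limma on log2(scaled CPM + 0.5), and was called when its Benjamini-Hochberg adjusted p over all genes tested was below 0.05. Fold changes are log2 differences on that scale with standard errors, and they understate changes of low genes.

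Hoxb1 lies at the 3′ end and is known for its part in the hindbrain. It was at 22.6, 17.1 and 23.0 scaled CPM in the 3 early FLB libraries and at 34.6, 35.6 and 39.9 in TB. In the early HLBs it was at 0.460, 1.19 and 1.13, and in E10.5 FLBs it was listed at 0 in 1 library and at 0.329 and 0.344 in the others. These 2 high groups stood well apart from all the others. Hoxb1 was listed at 0 in all 3 E10.5 HLB libraries, was at 0.119 to 0.374 in the 6 ES-derived libraries, and reached 2.23 in 1 BA library while the other two were at 0. Apart from that BA library and the early HLBs these levels rest on few reads, at most 10 reads over the 3 libraries of a group.

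Hoxb2, Hoxb3, Hoxb4 and Hoxb5 follow it, genes that respond to retinoic acid in hindbrain and trunk. Hoxb2 was at 51.2, 54.8 and 49.1 scaled CPM in ES-FLB and at 49.0, 44.7 and 50.0 in early FLBs, and these libraries overlapped. It was at 29.1 to 31.2 in TB, 20.7 to 21.4 in ES-HLB, 10.3 to 16.3 in early HLBs, 10.4 to 13.9 in E10.5 FLBs and 4.96 to 7.41 in E10.5 HLBs. BA (4.57, 8.09 and 10.7) and Ca (4.597, 7.55 and 10.6) overlapped with both E10.5 limb buds. Hoxb2 was thus 1 of the few members present in every library.

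Hoxb3 was the member with the highest level in ES-FLB, at 119, 119 and 121 scaled CPM. Early FLBs followed with 81.0, 77.3 and 80.9, TB with 57.1 to 62.1 and ES-HLB with 42.8 to 46.6. Early HLBs (23.5, 30.7 and 29.5) and E10.5 FLBs (30.6, 28.1 and 36.2) overlapped. The E10.5 HLBs were lower at 12.6 to 15.4, and the 3 BA libraries spread from 2.79 to 12.1 and the 3 Ca libraries from 6.51 to 22.2.

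Hoxb4 had the same leading groups, with 42.6, 42.4 and 41.6 scaled CPM in ES-FLB and 33.9, 34.7 and 40.1 in early FLBs. TB (11.1 to 14.5) and ES-HLB (11.1 to 12.7) overlapped, as did early HLBs (6.02 to 8.03) and E10.5 FLBs (6.45 to 7.23). It was at 0.916, 2.53 and 2.48 in E10.5 HLBs. Hoxb5 was at 34.1, 35.8 and 33.9 in early FLBs and at 34.8, 31.4 and 30.8 in ES-FLB. No other group passed 11.2, the highest TB library, and ES-HLB (4.99, 4.5995 and 4.10) overlapped with early HLBs (3.98, 5.65 and 4.53). Hoxb5 was therefore the member of this block that most nearly marked early FLBs and ES-FLB alone.

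Hoxb6 to Hoxb9 belong to the middle and 5′ part and are known for the trunk. Hoxb6 was at 41.5, 39.7 and 40.3 scaled CPM in early FLBs, far above the next group, TB, with 10.7, 10.1 and 10.1. Early HLBs (7.10, 7.60 and 8.03) overlapped with ES-FLB (5.60, 7.41 and 8.24). ES-HLB had 1.12, 1.12 and 1.64, below every limb bud library.

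Hoxb7 did not separate early FLBs (17.8, 17.03 and 15.997), TB (17.1, 15.8 and 16.3) and early HLBs (12.3, 17.2 and 16.97), whose libraries overlapped. E10.5 HLBs were at 6.41, 8.50 and 5.67 scaled CPM and E10.5 FLBs at 2.72, 5.10 and 3.10. ES-FLB had 2.50, 2.81 and 4.90, and ES-HLB 1.87, 1.12 and 0.703. Hoxb8 was at 45.1, 44.2 and 43.2 in early FLBs, 24.4, 23.3 and 21.9 in TB and 16.6, 26.8 and 23.3 in early HLBs. In the E10.5 buds the order of limb types turned, with 6.04, 8.86 and 9.21 in HLBs and 1.02, 3.12 and 3.62 in FLBs. ES-FLB was at 5.36, 7.15 and 7.64 and ES-HLB at 3.12, 1.81 and 2.46.

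Hoxb9, the most 5′ gene of the compact part, was highest in TB at 95.5, 98.1 and 101 scaled CPM. Early FLBs (64.6, 59.2 and 70.5) and early HLBs (39.9, 73.0 and 65.2) overlapped. Replicate 1 of the early HLBs was the lowest of the 3 for every member from Hoxb1 to Hoxb9. All 10 members summed to 120, 187 and 171 scaled CPM in the early HLB libraries. E10.5 HLBs had 16.3, 19.2 and 15.2, and E10.5 FLBs 2.72, 2.63 and 3.44. The ES-derived groups lay between these, with 5.24, 4.34 and 5.49 in ES-FLB and 5.74, 6.55 and 6.21 in ES-HLB.

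Hoxb13, the isolated 5′ gene known for the tail and the hindgut, was a tail bud gene in these data, with 53.8, 68.0 and 48.8 scaled CPM in TB. It was listed at 0 in all libraries of early HLBs, E10.5 FLBs, BA and Ca, and 1 read each was recorded in the early FLBs and the E10.5 HLBs. In ES-FLB it was at 1.31, 0.766 and 0.239 and in ES-HLB at 0.873, 0.418 and 0.703, above all 12 limb bud libraries. These are 19 and 16 reads over 3 libraries, and the gene was tested only against TB.

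**Figure D1:**
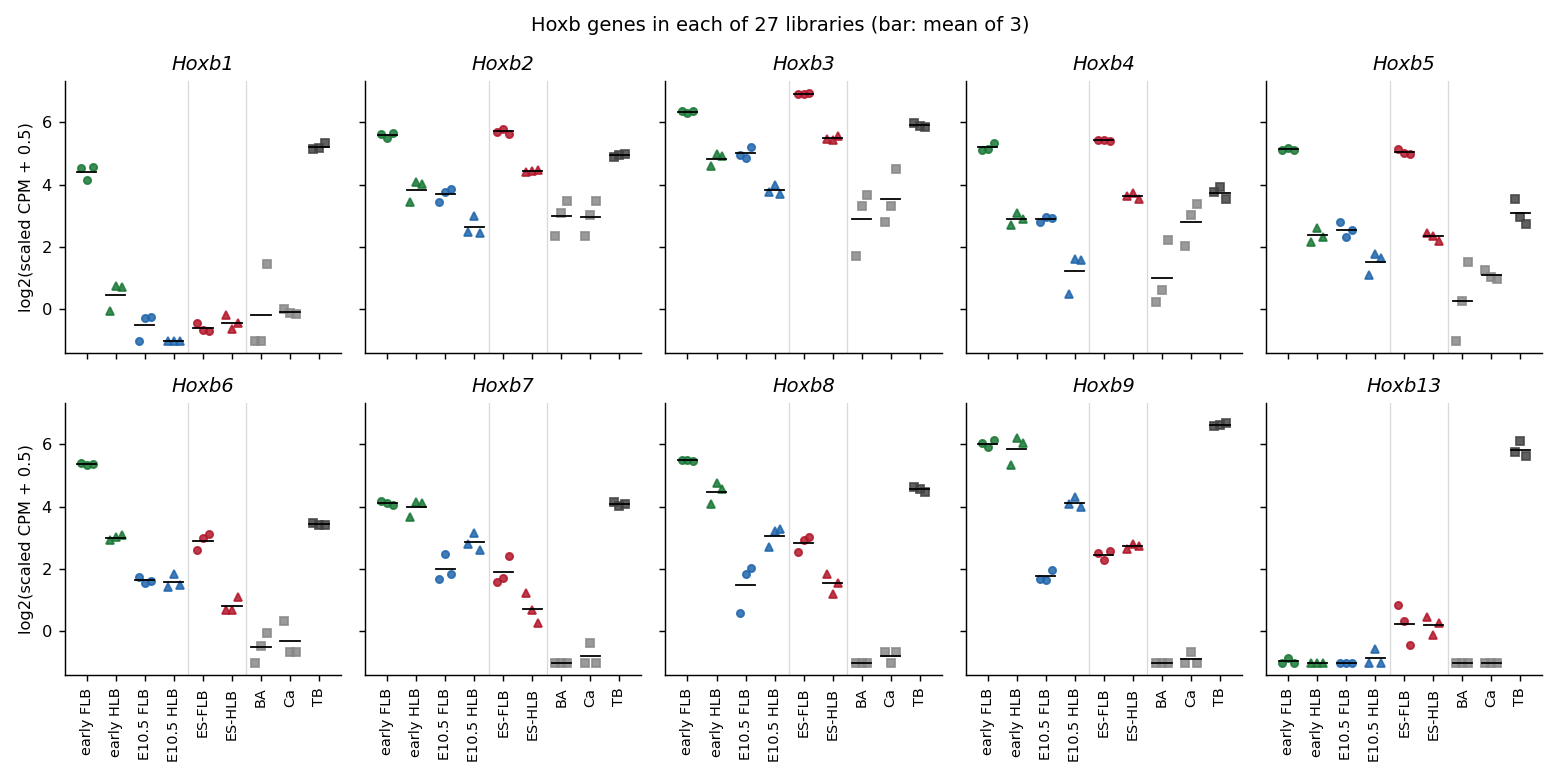
The 10 panels give log2(scaled CPM + 0.5) of each Hoxb gene in the 27 libraries, with 1 point for a library, circles for forelimb, triangles for hindlimb, squares for other tissues, and a bar for the mean of 3. Hoxb2 to Hoxb5 of ES-FLB lie near the early FLBs, whereas Hoxb6 to Hoxb9 of each ES-derived group lie below the early buds of its own limb type. ES-FLB overlaps with early HLBs for Hoxb6, and Hoxb13 is high in TB.

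The first question is how limb type bears on the cluster in the embryo. In early HLBs, 7 of the 9 members tested were lower than in early FLBs and none was called higher, while 20.1% of all 12574 genes tested were called, 11.1% as lower and 9.03% as higher. Hoxb1, 1 of these 7, differed most, by −3.94 ± 0.22 (SE, adjusted p = 3.66e-06). It passed the filter on low values through the early FLBs, so the filter favoured its being lower in HLBs. Hoxb5 (−2.76 ± 0.12), Hoxb6 (−2.35 ± 0.08) and Hoxb4 (−2.30 ± 0.11) came next, with adjusted p of 8.87e-08, 1.52e-08 and 2.22e-07. Hoxb2 (−1.76 ± 0.16), Hoxb3 (−1.51 ± 0.09) and Hoxb8 (−0.999 ± 0.16, adjusted p = 0.00508) were also called, and their libraries did not overlap. Hoxb7 (−0.14 ± 0.12) and Hoxb9 (−0.17 ± 0.25) were not, with 95% intervals of −0.41 to 0.13 and −0.81 to 0.48. Without replicate 1 of the early HLBs both values were above 0, at 0.013 and 0.095, and still not called. In bulk tissue, fewer cells that express a gene and less RNA in each cell cannot be told apart. The summed neural tube markers were at 98.7 to 104 scaled CPM in early FLBs and 119 to 148 in early HLBs, with 3 of 15 at 0 in the latter, and the 10 somite and muscle markers at 51.3 to 65.5 and 33.2 to 49.8. The neural tube list includes Irx3, which the study uses as an anterior limb bud marker, so its sums are not of neural cells alone. The part of these markers in the result was not tested.

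At E10.5 the difference between limb types changed sign along the cluster. Of 8 members tested, 4 were lower in HLBs and 3 higher, where 29.2% of 12629 genes were called, 11.9% as lower and 17.3% as higher. Hoxb4 was lower by −1.66 ± 0.25, Hoxb3 by −1.17 ± 0.12, Hoxb2 by −1.04 ± 0.17 and Hoxb5 by −1.04 ± 0.24, all with adjusted p of 0.000610 or less. Hoxb6 did not differ beyond the spread (−0.07 ± 0.26, 95% interval −0.59 to 0.45). Hoxb7 was higher in HLBs by 0.86 ± 0.22, Hoxb8 by 1.57 ± 0.30 and Hoxb9 by 2.34 ± 0.18 (adjusted p = 4.99e-15). On the CPM as deposited, in which the truncated library is inflated by a factor of 1.51, only Hoxb9 was called, and Hoxb7 and Hoxb8 missed the threshold without variance trend and robust estimation (adjusted p = 0.0674 and 0.0524). Somite and muscle markers were lower in HLBs for 5 of 8 tested, with sums of 106 to 132 scaled CPM in FLBs and 50.6 and 48.4 in the complete HLB libraries (none of 10 at 0), and their part was not tested.

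The same comparison in culture is ES-HLB against ES-FLB, the cells that differed in the treatment with retinoic acid or its antagonist. Here 7 of 8 members tested were lower in ES-HLB and none was called higher, with 25.1% of 13102 genes called, 12.3% as lower. Hoxb5 was lower by −2.70 ± 0.12 and Hoxb6 by −2.08 ± 0.21, a 6.49-fold and a 4.22-fold difference. Hoxb4 (−1.79 ± 0.09), Hoxb3 (−1.42 ± 0.06), Hoxb8 (−1.29 ± 0.20), Hoxb2 (−1.27 ± 0.08) and Hoxb7 (−1.18 ± 0.27) followed, with adjusted p of 0.00122 or less. Hoxb9 was at 0.27 ± 0.17 (adjusted p = 0.256, 95% interval −0.07 to 0.61), although all 3 ES-HLB libraries lay above the 3 ES-FLB libraries. Hoxb1 and Hoxb13 were under the filter. The 15 neural tube markers summed to 109 to 112 scaled CPM in ES-FLB and 193 to 203 in ES-HLB, and of 10 tested 4 were higher and 3 lower. Higher in ES-HLB were also 4 of 4 blood markers tested (sums of 5.60 to 8.42 in ES-FLB and 86.7 to 163 in ES-HLB), 5 of 9 surface ectoderm markers (108 to 165 and 208 to 226) and 4 of 7 endothelial markers (28.2 to 31.2 and 46.5 to 50.04). None of these markers was at 0 in all 3 libraries, and their part was not tested.

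**Figure D2:**
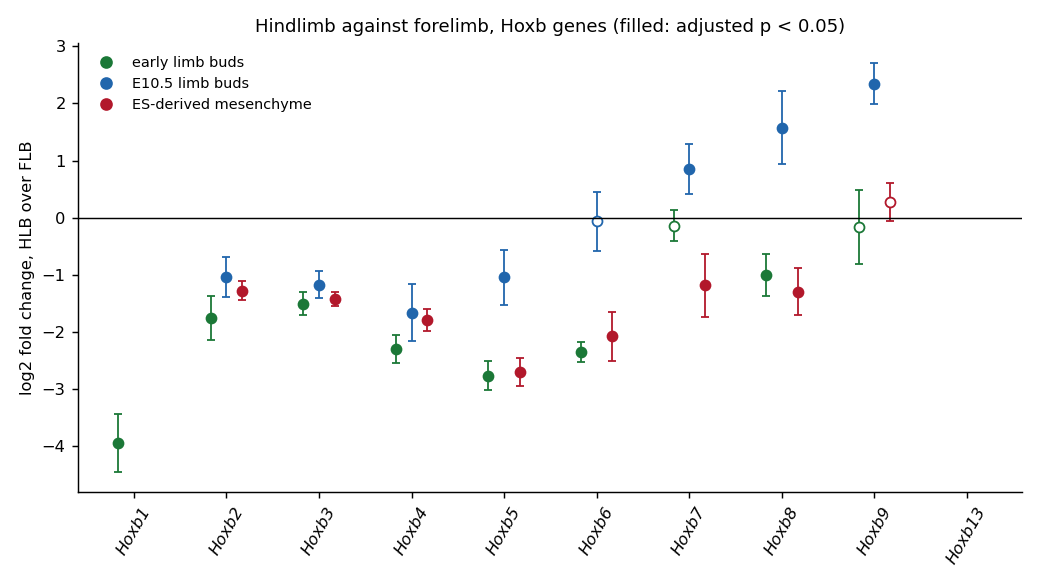
Each point is the log2 fold change of HLB over FLB for 1 Hoxb gene, in the order of the cluster, with its 95% interval from limma, for early buds, E10.5 buds and ES-derived mesenchyme, and filled points were called. Hoxb2 to Hoxb5 lie below 0 in all 3 pairs, and Hoxb7 to Hoxb9 lie above 0 and called in the E10.5 buds alone.

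Whether these limb type differences themselves differed was tested as an interaction over 12 libraries. Between E10.5 and early buds, 7 of 9 members were called and all 7 moved towards HLB at E10.5, where 26.2% of 13043 genes were called, 15.7% in that direction. The shift was 2.57 ± 0.50 for Hoxb8, 2.51 ± 0.27 for Hoxb9, 2.28 ± 0.20 for Hoxb6, 1.72 ± 0.25 for Hoxb5 and 0.99 ± 0.27 for Hoxb7. Hoxb2 was called narrowly (0.72 ± 0.24, adjusted p = 0.0354) and lost its call in the model of all 27 libraries (0.164), without a filter (0.0696), with pseudocount 0.1 (0.0524), without variance trend and robust estimation (0.0833) and without any of 6 single libraries (0.0580 to 0.0882), and Hoxb3 (0.33 ± 0.15) and Hoxb4 (0.63 ± 0.31) were not. Hoxb1 was called at 3.44 ± 0.38, and since it is at 0 in the E10.5 HLBs that value follows from its level in early FLBs and from the pseudocount.

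Between ES-derived cells and early buds, 3 of 9 members were called, against 22.6% of 13627 genes, 12.7% as higher and 9.92% as lower. Hoxb1 differed by 4.11 ± 0.33, a value that also depends on the pseudocount, since it was near the floor in both ES-derived groups. Hoxb4 had a smaller limb type difference in culture (0.51 ± 0.14, adjusted p = 0.0139) and Hoxb7 a larger one (−1.04 ± 0.34, adjusted p = 0.0394). Hoxb4 lost its call when all 27 libraries shared 1 model (adjusted p = 0.596) and Hoxb7 when any of 9 single libraries was left out (adjusted p = 0.0510 to 0.0953). For Hoxb3 (0.08 ± 0.11), Hoxb5 (0.06 ± 0.17) and Hoxb6 (0.27 ± 0.21) the difference was not called, with 95% intervals of −0.14 to 0.31, −0.29 to 0.41 and −0.17 to 0.70.

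The second question is how the cluster changed from the early to the E10.5 stage. In FLBs all 9 members tested were lower at E10.5, in a comparison that called 65.8% of 12796 genes, 40.2% as lower and 25.7% as higher. On the log2 scale Hoxb3 fell by 1.33 ± 0.08, Hoxb2 by 1.91 ± 0.10, Hoxb4 by 2.31 ± 0.11 and Hoxb5 by 2.58 ± 0.12. Hoxb6 fell by 3.71 ± 0.12, Hoxb8 by 3.98 ± 0.42 and Hoxb9 by 4.25 ± 0.12, and Hoxb7 by 2.12 ± 0.18, less than its neighbours. Hoxb1 passed the filter only through the early FLBs and so had to be lower, and with 4 reads in the E10.5 FLBs no fold is given. All adjusted p were 0.000700 or less. Of the markers, 8 of 10 for surface ectoderm were lower at E10.5 (sums of 311 to 323 against 424 to 543 scaled CPM). For somite and muscle 6 of 9 tested were higher (106 to 132 against 51.3 to 65.5). None of these was at 0 in all libraries of a group. Neural tube sums were at 74.5 to 83.5 at E10.5 (7 of 15 at 0), against 98.7 to 104 in early FLBs (none at 0). The part of all these markers was not tested.

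In HLBs all 8 members tested were lower at E10.5 as well, with 34.1% of 12530 genes called and 22.9% called lower. The changes lay between −0.86 ± 0.22 for Hoxb5 (adjusted p = 0.00894) and −1.74 ± 0.23 for Hoxb9. Hoxb2 was at −1.20 ± 0.19, Hoxb3 at −0.995 ± 0.12, Hoxb4 at −1.67 ± 0.27, Hoxb6 at −1.43 ± 0.18, Hoxb7 at −1.12 ± 0.17 and Hoxb8 at −1.41 ± 0.19. On the CPM as deposited none of the 8 was called, with adjusted p between 0.0784 and 0.328. By the study's staging, though not by the labels, the early FLBs preceded the early HLBs. The larger changes in FLBs and a longer interval therefore cannot be told apart.

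The third question is how ES-derived mesenchyme compares with the limb buds it was made to resemble. Against early FLBs, ES-FLB was not called different for Hoxb2 (0.11 ± 0.07, 95% interval −0.03 to 0.25) and Hoxb5 (−0.10 ± 0.07, −0.25 to 0.06), whose libraries overlapped. Hoxb3 was higher by 0.58 ± 0.05 and Hoxb4 by 0.22 ± 0.07, and Hoxb6 (−2.45 ± 0.12), Hoxb7 (−2.21 ± 0.19), Hoxb8 (−2.64 ± 0.11) and Hoxb9 (−3.56 ± 0.10) were lower, so that 7 of 9 members were called, 2 higher and 5 lower. The background is large, with 82% of 13140 genes called, 37.3% as higher and 44.6% as lower. Hoxb1, the fifth lower gene, passed the filter only through the early FLBs and so had to be lower, and with 4 reads in ES-FLB no fold is given. In 1 model of all 27 libraries Hoxb3 and Hoxb4 were no longer called (adjusted p = 0.167 and 0.617), and without replicate 1 of the early FLBs Hoxb4 was not (adjusted p = 0.0620). With scaling by the median of ratios Hoxb2 was called higher (0.25, adjusted p = 0.00248) and Hoxb5 turned to 0.045, not called, while on CPM as deposited Hoxb5 was called higher (0.21, adjusted p = 0.0148). The median scaling raises all values of this comparison by 0.14 on the log2 scale, and CPM as deposited by 0.31.

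ES-HLB against early HLBs gave the same split along the cluster, with 3 members higher and 4 lower of 8 tested. Hoxb2 (0.59 ± 0.15), Hoxb3 (0.67 ± 0.10) and Hoxb4 (0.73 ± 0.14) were higher, Hoxb5 was at −0.03 ± 0.17 (−0.40 to 0.33), and Hoxb6 (−2.18 ± 0.18), Hoxb8 (−2.94 ± 0.20), Hoxb9 (−3.12 ± 0.21) and Hoxb7 (−3.25 ± 0.23) were lower. Of 13180 genes 78.3% were called, 35.5% as higher and 42.9% as lower. In the model of all 27 libraries Hoxb3 and Hoxb4 missed the threshold here too (adjusted p = 0.119 and 0.0972). The deficit of Hoxb6 to Hoxb9 was called in both limb types.

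Against the later buds the picture differed between limb types. ES-FLB exceeded E10.5 FLBs in 7 of 8 members tested, with none lower and 71.7% of 13174 genes called, 34.5% as higher and 37.2% as lower. The excess was 2.53 ± 0.11 for Hoxb4, 2.49 ± 0.13 for Hoxb5, 2.02 ± 0.10 for Hoxb2 and 1.91 ± 0.07 for Hoxb3, and 0.69 ± 0.20 to 1.34 ± 0.32 for Hoxb6, Hoxb8 and Hoxb9. Hoxb7 was at −0.09 ± 0.25 and not called. ES-HLB exceeded E10.5 HLBs in Hoxb2 (1.79 ± 0.15), Hoxb3 (1.66 ± 0.10), Hoxb4 (2.40 ± 0.23) and Hoxb5 (0.83 ± 0.22) and was below them in Hoxb6 (−0.76 ± 0.25), Hoxb9 (−1.38 ± 0.14), Hoxb8 (−1.53 ± 0.21) and Hoxb7 (−2.13 ± 0.25). All 8 members tested were called there, beside 73.6% of 13020 genes, 35.1% as higher and 38.4% as lower. Hoxb5 lost its call on CPM as deposited (adjusted p = 0.0800) and in the model of all 27 libraries (adjusted p = 0.0547). Hoxb6 lost its call on CPM as deposited (adjusted p = 0.0624) and without replicate 1 of ES-HLB (adjusted p = 0.0531).

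The sorted ES-derived cells and the dissected buds also differ in their cell types. Between ES-FLB and early FLBs 44.6% of all genes were called lower and 37.3% higher, which the counts of markers stand beside. All 7 blood markers and all 7 endothelial markers were lower in ES-FLB than in early FLBs, with blood sums of 5.60 to 8.42 against 2377 to 4434 scaled CPM and endothelial sums of 28.2 to 31.2 against 363 to 387. Of 10 surface ectoderm markers 8 were lower, with sums of 108 to 165 against 424 to 543. None of these markers was at 0 in all 3 libraries of either group. Neural tube sums were at 109 to 112 and 98.7 to 104, and 7 of 8 endoderm markers were higher in ES-FLB. The part of these cells in the Hoxb differences was not tested. Strain, culture and sequencing depth cannot be told apart from the other differences between the groups.

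**Figure D3:**
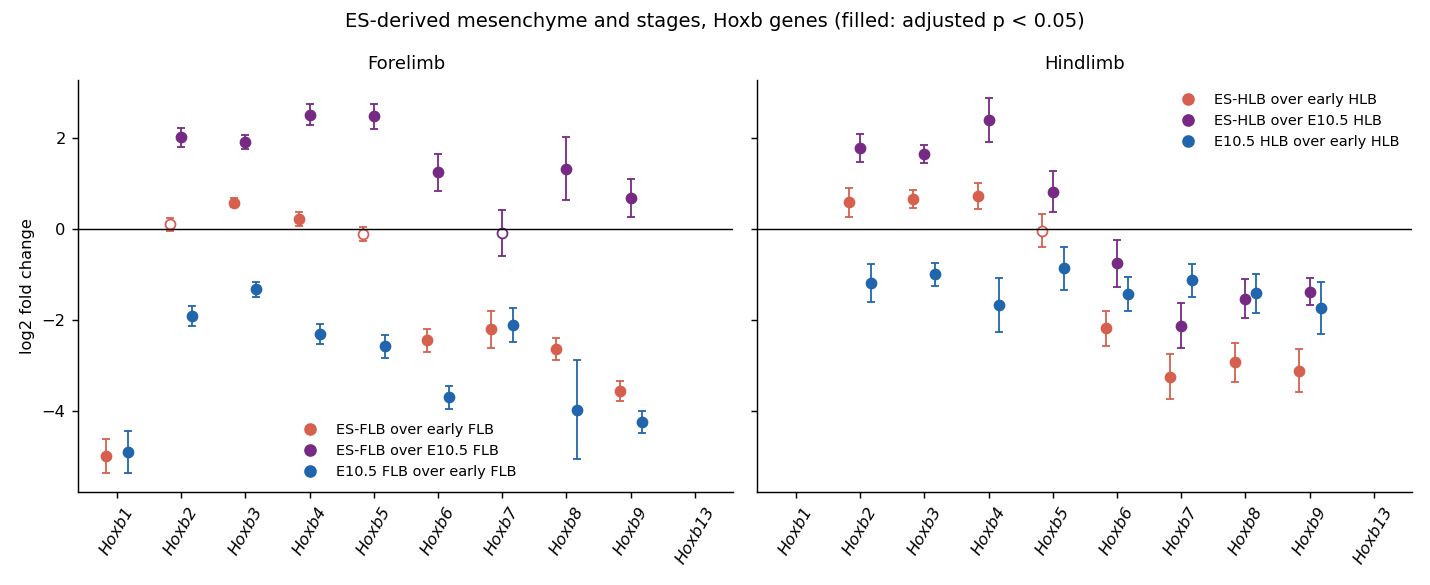
Points are log2 fold changes with 95% intervals from limma for each Hoxb gene in cluster order, forelimb on the left and hindlimb on the right, for ES-derived cells over early buds, ES-derived cells over E10.5 buds, and E10.5 over early buds, with filled points called. ES-derived cells lie at or above the early buds for Hoxb2 to Hoxb5 and well below them for Hoxb6 to Hoxb9 in both limb types.

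Levels per kb of exon allow the genes to be set beside each other. In ES-FLB Hoxb3 (34.0 ± 0.22 scaled CPM per kb, SD, n = 3) and Hoxb2 (31.8 ± 1.77) led and Hoxb9 was at 1.95 ± 0.24. In early HLBs Hoxb9 led with 23.1 ± 6.72, followed by Hoxb7 at 12.002 ± 2.14, and in early FLBs Hoxb2 (29.4 ± 1.75), Hoxb9 (25.2 ± 2.21) and Hoxb3 (22.6 ± 0.59) were the highest. The share of Hoxb6 to Hoxb9 in the summed per-kb level of Hoxb2 to Hoxb9 is a value within each library that no scaling between libraries moves. It was 47.8%, 47.2% and 46.8% in early FLBs and 66.7%, 69.2% and 69.0% in early HLBs. At E10.5 it was 19.3%, 26.0% and 20.8% in FLBs and 64.4%, 62.4% and 62.5% in HLBs. HLBs thus drew most of the RNA of these 8 genes from the 5′ part at both stages, and FLBs less of it at E10.5 than before.

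In the ES-derived cells that share was far lower, at 8.11%, 9.33% and 11.9% in ES-FLB and 14.4%, 12.6% and 12.6% in ES-HLB. All 6 lay below every limb bud library, and ES-HLB stood above ES-FLB by 3.41 percentage points. TB, at 58.3%, 59.0% and 60.4%, was near the HLBs, and BA (0% to 1.83%) and Ca (0.679% to 5.84%) held almost none. In all 9 comparisons of limb groups the libraries did not overlap, and each gave p = 0.10 in an exact two-sided permutation test, the smallest that 3 against 3 libraries allow, so none can pass 0.05.

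**Figure D4:**
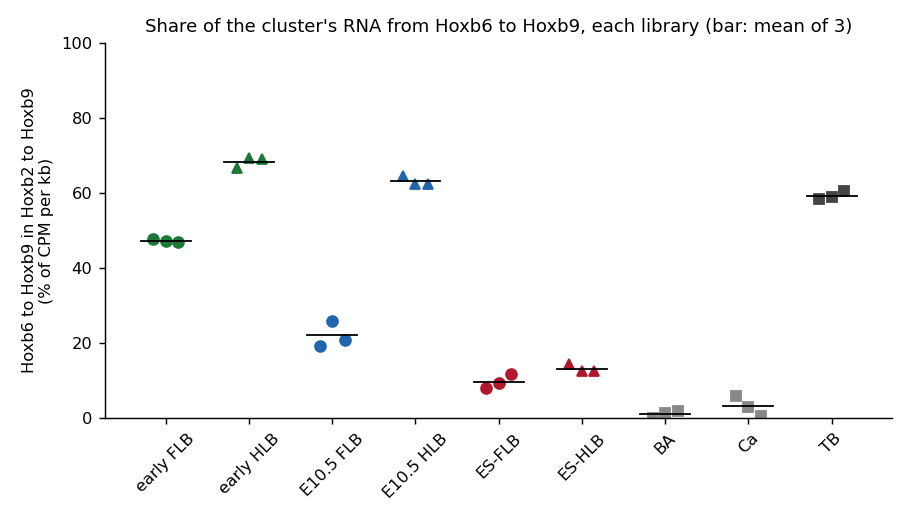
Each point is 1 library and gives the share, in percent, of Hoxb6 to Hoxb9 in the summed CPM per kb of Hoxb2 to Hoxb9, with a bar for the mean of 3, circles for forelimb, triangles for hindlimb and squares for other tissues. The ES-derived libraries lie between 8.11% and 14.4%, below all limb buds, and HLBs of both stages between 62.4% and 69.2%.

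Of the other E10.5 tissues, TB lies behind the limb buds. In TB all 10 members were higher than in E10.5 HLBs, beside 46.2% of 12911 genes called, 20.7% as higher and 25.5% as lower. Hoxb9 differed by 2.51 ± 0.08, Hoxb4 by 2.51 ± 0.24, Hoxb2 by 2.30 ± 0.14 and Hoxb7 by 1.22 ± 0.15. Hoxb1 and Hoxb13 passed the filter through TB alone, and no fold is given for them, since the E10.5 HLBs had 0 and 1 reads. TB also carried neural tube markers at 228 to 270 scaled CPM (1 of 15 at 0), against 79.3 and 84.9 in the E10.5 HLBs (7 of 15 at 0). Somite and muscle markers were at 611 to 634 (none at 0), against 50.6 and 48.4. The truncated replicate 2 was left out of both. In it 8 neural tube markers were missing and the rest summed to 3.25, so the sums of the E10.5 HLBs rest mainly on those 8. The part of the markers was not tested.

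BA and Ca lie in front of the limb and held little Hoxb RNA beyond Hoxb2, Hoxb3 and Hoxb4. Hoxb7, Hoxb8 and Hoxb9 were listed at 0 in all 3 BA libraries, and Ca had 2, 2 and 1 reads of them in all. Against E10.5 FLBs, 5 of 8 members were called lower in BA (21.3% of 12913 genes called, 10.4% as lower) and 6 of 8 in Ca (75.6% of 13308 genes called, 38.7% as lower and 36.9% as higher). Hoxb6 to Hoxb9 passed the filter through the FLBs alone and had to differ, and when 1 FLB library was left out they were no longer tested. Hoxb4 in BA then also lost its call (adjusted p = 0.0970 to 0.125), so that 0 were called in BA and 1 or 2 in Ca. Of the genes with signal in both tissues, Hoxb2 was lower in Ca (−0.74 ± 0.25, adjusted p = 0.0219) with overlapping libraries and not called in BA (−0.71 ± 0.26, adjusted p = 0.0853). Hoxb4 was at −1.87 ± 0.49 in BA (adjusted p = 0.0388) and −0.08 ± 0.30 in Ca. Hoxb5 was lower in Ca (−1.45 ± 0.23, adjusted p = 2.93e-05), without overlap, and not called in BA (−2.29 ± 0.63, adjusted p = 0.0528). Hoxb3 did not overlap with the FLBs but was not called in BA (−2.10 ± 0.60, adjusted p = 0.0896) or Ca (−1.46 ± 0.50, adjusted p = 0.0524). In the model of all 27 libraries it was called in both (adjusted p = 0.000378 and 0.00182). Hoxb3 was at 2.79, 9.47 and 12.1 scaled CPM in the BA libraries, whose neural tube sums were 214, 79.7 and 142 with 1 of 15 markers at 0, and the part of these cells was not tested. In BA against Ca 1 of 4 members tested was called, Hoxb4 at −1.79 ± 0.64 (adjusted p = 0.0485), beside 74.8% of 13359 genes called, 36.7% as lower and 38.1% as higher, and its BA libraries (0.669, 1.04 and 4.11) overlapped with Ca (3.58, 7.55 and 9.95).

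Within 250 kb of the cluster the table held 13 other genes, of which 7 had a mean under 1 scaled CPM in every group, Mir196a-1 and Mir10a among them. Gm53, a long noncoding RNA at 96251660 to 96264484, in the gap between Hoxb13 and Hoxb9 and next to Mir196a-1, was low in the limb groups. It was at 0.159, 0.0521 and 0.108 scaled CPM in early FLBs and 5.97, 4.34 and 4.86 in early HLBs. At E10.5 it was at 0.509, 0.164 and 0 in FLBs and 1.65, 3.44 and 3.37 in HLBs. In early and E10.5 buds Gm53 passed the filter through the HLBs alone and so had to be higher there, and no fold is given. In the ES-derived cells it was called higher in ES-HLB, by 0.96 ± 0.26 (adjusted p = 0.00675). ES-FLB had 0.715, 1.15 and 0.836 and ES-HLB 2.87, 1.95 and 1.87. Like Hoxb13 it was highest in TB, at 10.05, 11.01 and 10.8, and it was listed at 0 in all BA and Ca libraries. In the ES-derived pair too it passed the filter through the hindlimb side, ES-HLB.

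Of the others, 4 were expressed in every group. Igf2bp1, which encodes an RNA-binding protein of fetal growth, was lower in early HLBs (−0.41 ± 0.05) and higher in E10.5 HLBs (0.25 ± 0.04) and ES-HLB (0.30 ± 0.05) than in the matching forelimb groups. Snf8, a subunit of the endosomal sorting complex, was not called in any of these 3 pairs. Ube2z and Atp5g1 were called only at E10.5, at 0.20 ± 0.05 and 0.23 ± 0.06. Skap1 reached 1.37 to 1.62 scaled CPM in TB and stayed under 1 elsewhere.

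Genes known to act upstream of Hox clusters were followed as lists. The share of all genes called was 20.1% in early HLBs against FLBs and 25.1% in ES-HLB against ES-FLB. Of the 7 Cdx and axial regulators, 3 were tested in early HLBs against FLBs: Cdx1, a caudal-type activator of Hox genes, was lower by −2.38 ± 0.10, Nr6a1, a nuclear receptor of trunk development, was lower by −1.70 ± 0.12, and Gdf11, a signal of the trunk to tail transition, was higher by 0.48 ± 0.11. Nr6a1 was at 152, 152 and 162 scaled CPM in early FLBs, 38.5, 53.7 and 51.6 in early HLBs and 5.34 to 12.6 in the other 4 limb groups. Cdx1 was at 46.1, 51.4 and 47.2 in early FLBs, 7.66 to 9.66 in early HLBs, 0.172 to 3.07 at E10.5 and 0.558 or less in the ES-derived cells. Nr6a1 was called lower in ES-FLB than in early FLBs (−3.97 ± 0.10) and in ES-HLB than in early HLBs (−2.05 ± 0.13). In these 2 comparisons 82% and 78.3% of all genes were called. Cdx1 was called lower in both too, but it passed the filter only through the early buds and so had to be lower. Between ES-HLB and ES-FLB none of the 2 list genes tested was called. In TB 5 of 7 were higher than in E10.5 HLBs, T among them, beside 20.7% of all genes called higher.

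Of 19 genes of the retinoic acid pathway, 17 were tested between the ES-derived groups, of which 9 were lower and 4 higher in ES-HLB. Of all genes 12.3% were called lower there and 12.8% higher. Aldh1a2, which makes retinoic acid, was at 172, 164 and 161 scaled CPM in ES-FLB and 28.7, 30.1 and 32.0 in ES-HLB (−2.43 ± 0.06). Dhrs3, which lowers the supply of its precursor, was at 1.43, 1.28 and 1.43 in ES-FLB and 11.97, 12.96 and 10.4 in ES-HLB (2.70 ± 0.18). In early HLBs against FLBs 4 of 15 were higher and 4 lower, beside 9.03% and 11.1% of all genes. At E10.5 it was 5 of 15 each way, beside 17.3% of all genes higher and 11.9% lower, with Aldh1a2 higher in E10.5 HLBs by 1.48 ± 0.18. Aldh1a2 in culture therefore differed in the direction opposite to that at E10.5, where 1 HLB library is missing for it.

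Meis and Pbx proteins bind DNA with Hox proteins. In the limb type comparisons the share of all genes called was 20.1% in early buds, 29.2% at E10.5 and 25.1% between the ES-derived groups. Of 9 such genes, 4 were lower in ES-HLB than in ES-FLB, among them Meis1 (−0.62 ± 0.04) and Meis3 (−0.51 ± 0.10), and none was higher. In early buds 2 of 8 were lower in HLBs, and at E10.5 4 of 9 were higher and 1 lower. None of the 9 Polycomb and trithorax genes, which silence and maintain Hox clusters, was called in early buds, 1 was lower between the ES-derived groups, and at E10.5 1 was higher and 1 lower.

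**Figure D5:**
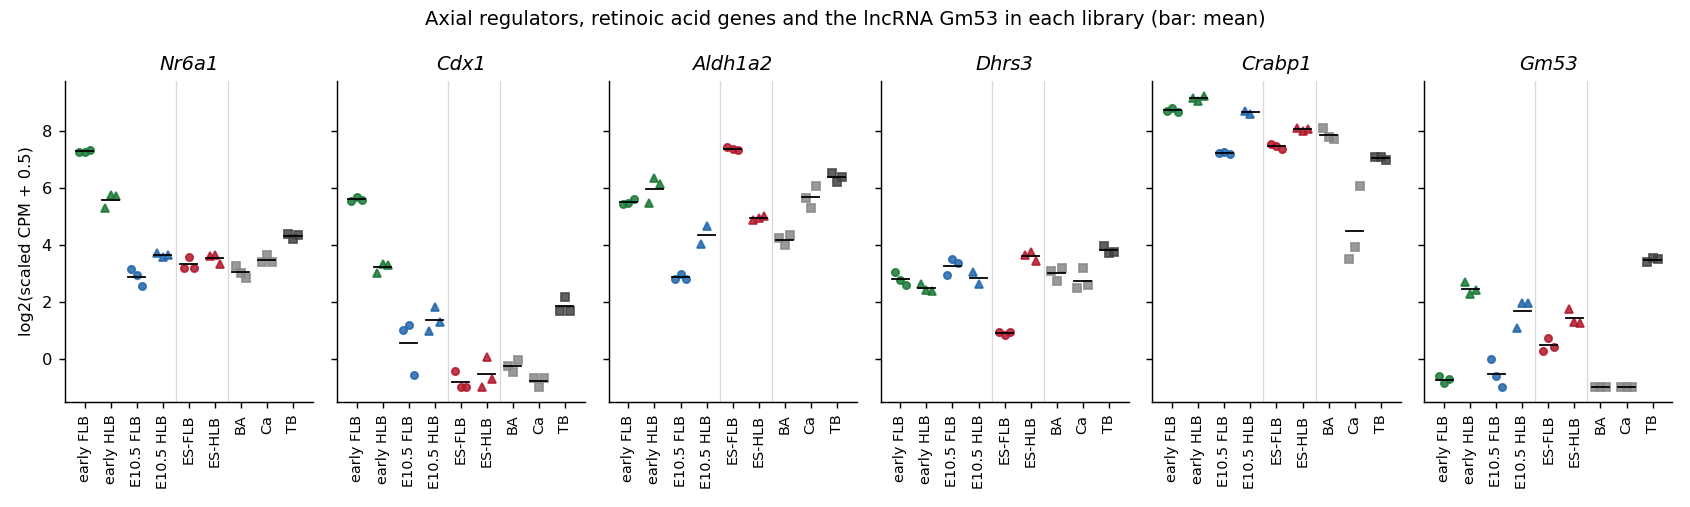
Panels give log2(scaled CPM + 0.5) of Nr6a1, Cdx1, Aldh1a2, Dhrs3, Crabp1 and Gm53 in each library with a bar for the mean, and E10.5 HLBs have 2 points for Aldh1a2, Dhrs3 and Crabp1, which are missing in the truncated library. Nr6a1 and Cdx1 are highest in early FLBs, Aldh1a2 in ES-FLB, and Gm53 is higher in each HLB group than in its FLB group.

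The other Hox clusters were counted in the same comparisons. Between ES-HLB and ES-FLB 12.8% of all genes were called higher and 12.3% lower. In ES-HLB against ES-FLB the median over the 8 Hoxb genes tested was −1.36, over 11 Hoxa genes −0.97 (4 higher and 7 lower), over 7 Hoxc genes −1.20 (3 higher and 4 lower) and over 8 Hoxd genes 1.09 (4 higher and 1 lower), with a median over all genes near 0. The higher genes named by the rule were Hoxa9 (1.41 ± 0.11), Hoxa10 (2.05 ± 0.07), Hoxa11 (2.47 ± 0.10), Hoxc10 (2.11 ± 0.12), Hoxd10 (2.37 ± 0.26), Hoxd11 (2.06 ± 0.26), Hoxd12 (2.12 ± 0.22) and Hoxd13 (2.47 ± 0.18), all of the 5′ ends, while Hoxa5 (−3.13 ± 0.10), Hoxc5 (−2.91 ± 0.10), Hoxc4 (−2.23 ± 0.12) and Hoxc6 (−2.08 ± 0.12) were lower. Against early buds, all 8 Hoxd genes tested were lower in ES-FLB and all 9 in ES-HLB, with medians of −3.53 and −2.57. Of all genes 44.6% and 42.9% were called lower in these comparisons.

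Genes whose 9 group means followed those of a Hoxb gene most closely were sought among 12375 genes outside the cluster, on the log2 scale. For Hoxb5 they were Hoxc5 (Pearson r = 0.945), Hoxc4 (0.941) and Hoxa4 (0.924), and Hoxc5 was at 84.5 scaled CPM on average in early FLBs, 63.1 in ES-FLB and 6.25 in early HLBs. For Hoxb1 they were Hoxd1 (0.947), Nmnat2 (0.944) and Syt7 (0.926), and for Hoxb4 Tmem161b (0.916), Nmt2 (0.910) and Hoxc5 (0.875). For Hoxb9 they were Slc46a1 (0.968), Slc7a6 (0.951) and 2610305D13Rik (0.929). These are descriptions over 9 groups whose libraries differ in depth, and several of these genes varied little: Tmem161b ranged only from 8.90 to 12.7 scaled CPM.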

How the data were processed

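Stranded mRNA libraries of 27 samples were analysed. The authors aligned reads to mm10 with HISAT2 2.0.4 and deposited CPM per gene; the submitters' notes also name FastQC 0.11.5, Cufflinks 2.1.1 and edgeR 3.16.2. CPM are not counts, so no count test was run. CPM were rescaled here by trimmed means of log ratios (30% and 5% trimmed), and 8491 values of the truncated library were set to missing. Each comparison was fitted on its own groups (6 libraries, or 12 for an interaction) with limma 3.58.1 (R 4.3.3, trend and robust) on log2(scaled CPM + 0.5), for genes at 1 scaled CPM or more in 3 libraries, with Benjamini-Hochberg adjustment over all genes tested. The test was checked on simulated data. Genes named outside the cluster were the 4 of a list with the smallest adjusted p among those called, neighbours within 250 kb, and the 3 most alike over group means. Some genes that this rule names are not reported here. Members and lists were chosen with earlier results of these data known. Alternatives were other scalings, pseudocounts, filters, thresholds and models, and leaving out each library.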

Additional observations from a re-analysis of the deposited data

Results flagged for a closer look

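The limb type difference (HLB minus FLB, log2 scale) was not the same between conditions for several Hoxb genes, by a test of the difference itself in limma. Between E10.5 and early buds it shifted by 3.44 for Hoxb1, 0.72 for Hoxb2, 1.72 for Hoxb5, 2.28 for Hoxb6, 0.99 for Hoxb7, 2.57 for Hoxb8 and 2.51 for Hoxb9. These are 7 of 9 members tested, beside 26.2% of 13043 genes called. Between ES-derived cells and early buds it shifted by 4.11 for Hoxb1, 0.51 for Hoxb4 and −1.04 for Hoxb7. These are 3 of 9 members tested, beside 22.6% of 13627 genes called. The calls of Hoxb2 in the first set and of Hoxb4 and Hoxb7 in the second were lost under some alternatives. Both sets use the same early bud libraries. By the study's staging, though not by the labels, the early FLBs and HLBs differ in stage as well as limb type, which cannot be told apart. Hoxb1 is at or near 0 in the E10.5 and ES-derived groups, so its 2 values follow from its level in the early FLBs and depend on the pseudocount.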

How the results depend on the processing

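Of 2019 values of 123 results under the alternatives, 1883 kept their direction and side of the threshold, 88 lost a call, 27 gained one and 21 changed sign. On CPM as deposited, 1 member was called at E10.5 between limb types, 0 in E10.5 against early HLBs and 0 in BA against Ca; the truncated library is inflated there by construction. With a filter of 5 CPM the counts were 1 in BA against FLB, 1 in Ca against FLB and 0 in BA against Ca. BA against Ca gave 0 with pseudocount 1, without a filter and at a threshold of 0.001, and 2 with all 27 libraries in 1 model and with the replicate block. At 0.001 the interactions gave 1 (ES) and 4 (E10.5). Leaving out single libraries gave 0 to 7 in BA against FLB, 1 to 7 in Ca against FLB and 0 to 2 in BA against Ca. Every value that changed sign was not called in the reported fit, and 1 was called after the change (Hoxb5 in ES-FLB against early FLB on CPM as deposited, adjusted p = 0.0148). With CPM as deposited these were Hoxb6 at E10.5 (0.049), Hoxb5 in ES-FLB (0.21) and ES-HLB (0.19) against early buds and in the ES interaction (−0.013). With median ratios they were Hoxb5 in ES-FLB (0.045) and ES-HLB (0.088) against early buds and Hoxb2 in BA against Ca (−0.019). Over left-out libraries the ranges were −0.22 to 0.013 (Hoxb7) and −0.34 to 0.095 (Hoxb9) in early buds, −0.19 to 0.012 (Hoxb6) at E10.5, −0.14 to 0.089 (Hoxb5) in ES-HLB against early HLBs, −0.35 to 0.15 (Hoxb7) in ES-FLB against E10.5 FLBs, −0.37 to 0.31 (Hoxb4) in Ca against FLB, −0.27 to 0.35 (Hoxb2) in BA against Ca, and −0.034 to 0.15 (Hoxb3) and −0.041 to 0.19 (Hoxb5) in the ES interaction. Deviations of same-numbered libraries correlated at over 0.1 for every number in 0 of 13 comparisons. In ES-HLB against ES-FLB, E10.5 HLBs against FLBs, BA and Ca against FLB, and BA against Ca, each library still matched its own number best (r of 0.0390 to 0.149). In the others not all did, so pairing was not settled. The replicate block gave 2 calls in the ES interaction and 7 each in the 3 limb type comparisons. Over all members it gained 4 calls, Hoxb2 (adjusted p = 0.00140) and Hoxb5 (0.00725) in BA against FLB among them, and lost 1. Other causes were not tested.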
